A study of Drosophila melanogaster with 4 samples.

Results

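The 43 genes described here encode proteins of the Polycomb and trithorax groups of Drosophila. They came from a list chosen with earlier results of these data known. Each was looked up by exact symbol in the authors' deposited table of genes with Prospero binding peaks, in its symbol and gene name columns. Of these 43 genes, 14 were in the table, which held 1510 unique gene identifiers in all. Polycomb group proteins keep developmental genes silent after the signals that first silenced them have gone, and trithorax group proteins keep such genes active. They work in complexes. Polycomb repressive complex 2 (PRC2) methylates histone H3 at silenced genes, Polycomb repressive complex 1 (PRC1) binds that mark, ubiquitinates histone H2A and compacts chromatin, and the PhoRC complex and other DNA-binding proteins bring both to their sites. On the opposing side stand the histone methylases of the trithorax and COMPASS family and the ATP-driven chromatin remodeller Brahma. In larval neural stem cells (neuroblasts), proteins of both groups are known to act in keeping lineage identity and in holding back reversion of progenitors.

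Binding was mapped by targeted DamID in brains dissected from larvae of the 3rd instar. DamID joins a chromatin protein to Dam, an adenine methylase from bacteria, so that GATC sites close to bound DNA become methylated in the cells that express the fusion. The 4 samples were unfused Dam as the background, fusions to full-length Prospero (Pros-FL) and to the form labelled Pros-ΔN7, and a fusion to the heterochromatin protein HP1a. All 4 were expressed under GMR71C09-GAL4 with Gal80ts, the temperature-sensitive GAL80 repressor, and each had 3 biological replicates per the design text. By the title of the series these are profiles of central brain neural precursors and neurons, while DNA was taken from whole brains, so the cells marked are those in which this driver line was active. Prospero is a homeodomain transcription factor that enters the daughters of dividing neuroblasts and takes them out of the cell cycle into differentiation.

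The data used here are names only. The authors' deposited table gives no peak height, position, replicate value or depth, and it is not stated which Prospero form it came from. A gene either stood in it or did not, so no spread between replicates and no test across samples could be had, and shares are given beside the share of all genes as descriptions. Where a gene is said not to be in the table, no entry analysed here names it. Among the 13946 genes of the chromosome arms that code for protein, 1082 were in the table, or 7.76%. The 14 of 43 Polycomb and trithorax group genes made 32.6% (exact Clopper-Pearson 95% interval 19.1 to 48.5, which treats genes as independent draws and covers counting error only).

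The genes in the table were unevenly spread over the complexes. PRC1 had 5 of 7 members in it, the DNA-binding recruiters 2 of 3, and the remaining trithorax group and associated genes 4 of 6. PRC2 had 1 of 8, the Brahma complex 1 of 9, and the trithorax and COMPASS genes 1 of 5. PhoRC had 0 of 3 and the deubiquitinase complex PR-DUB 0 of 2. By the share of all protein-coding genes, PRC1 would have 0.543, the recruiters 0.233 and the remaining trithorax group genes 0.466. The same share would give 0.621 for PRC2, 0.698 for Brahma and 0.388 for trithorax and COMPASS. It would give 0.233 for PhoRC and 0.155 for PR-DUB. The counts of these last 5 groups were within 1 gene of it. Summed by side, the 4 Polycomb group complexes had 6 of 20 genes in the table and the trithorax group had 6 of 20. Protein-coding genes of the same length deciles would give 2.08 and 2.78. The equal counts rest on placing corto on the trithorax side, though its protein interacts with proteins of both groups. The numbers per complex are small, and the exact 95% interval of the PRC1 share (29.0 to 96.3%) overlapped that of the PRC2 share (0.316 to 52.7%). No test of the difference between complexes was made.

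**Figure D1:**
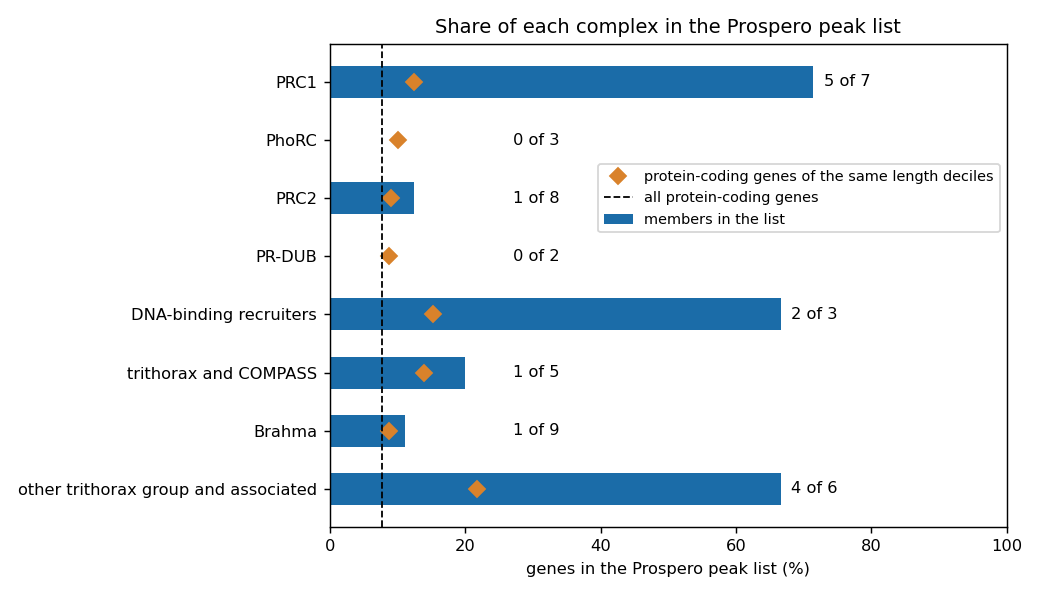
Bars show the percentage of each complex's genes in the authors' deposited table of Prospero peak genes, with the counts written beside them; diamonds show the percentage among all protein-coding genes of the same length deciles, and the dashed line that among all protein-coding genes (7.76%). PRC1, the DNA-binding recruiters and the other trithorax group genes stand at 66.7% or above, and the other 5 complexes at 20% or below.

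Within PRC1 the genes in the table were Pc, Psc, Su(z)2, ph-p and ph-d. Pc (FBgn0003042) encodes the chromodomain protein that binds the mark laid down by PRC2. Psc (FBgn0005624) and Su(z)2 (FBgn0265623) encode related RING finger proteins that stand in for each other, and ph-p (FBgn0004861) and ph-d (FBgn0004860) encode the paired Polyhomeotic proteins. Both genes of each of these pairs were in the table. The PRC1 members not in the table were Sce, the ligase that ubiquitinates histone H2A, and Scm, a protein that links Polycomb complexes to one another. These were also the shortest genes of the complex, at 1599 and 4253 bp (the span of the gene in the Release 6 plus ISO1 MT assembly), while the 5 in the table ran from 7560 bp (ph-d) to 14998 bp (Psc).

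The genes of each PRC1 pair lie close together on their chromosome. No protein-coding gene starts between ph-d and ph-p on the X chromosome, and 1 protein-coding gene, CG33798, lies between Psc and Su(z)2 on arm 2R. CG33798 was not in the table although the genes on both sides of it were, and Psc and Su(z)2 lie more than 10 kb apart. With the adjacent ph genes counted as 1, PRC1 had 66.7% of its genes in the table instead of 71.4%. The gene before Psc, CG13321, was in the table, and so was Rab26 next to Pc, which encodes a small GTPase.

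Of the 8 PRC2 genes, 1 was in the table (12.5%, against 9.06% of protein-coding genes in the same length deciles). The methylase gene E(z) was not in it, nor were Su(z)12 and the histone chaperone gene Nurf55, which encode core subunits, nor the WD-repeat pair esc and escl. The accessory genes Pcl and Jarid2 were not in it either. The single PRC2 gene in the table was jing (FBgn0086655), which encodes a zinc finger protein related to the PRC2 cofactor AEBP2 of mammals and is also known for roles in neural and glial development. It is much the longest of the 43 genes, at 119787 bp, and among protein-coding genes of its length stratum (the longest of 50) 38.8% were in the table. The 7 PRC2 genes not in the table had a median length of 3556 bp, and Jarid2 was the longest of them at 9493 bp.

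None of the 3 PhoRC genes was in the table, where protein-coding genes of the same length deciles would give 0.304. These are pho and phol, which encode zinc finger proteins of the YY1 type that bind Polycomb response elements, and Sfmbt, their partner. Their lengths were 9160, 3479 and 7137 bp. Of the DNA-binding recruiters, 2 genes for proteins that bind GAGA-type sequence at the same elements were in the table. Trl (FBgn0013263) encodes the GAGA factor, which opens chromatin at promoters and response elements, and psq (FBgn0263102) encodes Pipsqueak, a BTB protein that binds similar sequence. The third gene of this group, lolal, encodes a short BTB protein that associates with the GAGA factor, and it was not in the table. Of the PR-DUB genes, neither calypso, which encodes the enzyme that takes ubiquitin off histone H2A, nor its partner gene Asx was in it.

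Among the histone methylases and demethylases, trx (FBgn0003862) was the only gene in the table. It encodes the founding trithorax protein, a histone methylase that keeps Hox genes on and is known to maintain the identity of neuroblasts of the type II lineage. The genes not in the table were ash1, a second methylase of the group, ash2, a subunit shared by the COMPASS complexes, Utx, the demethylase that removes the mark of PRC2, and lid (Kdm5 in the reference gene table), a demethylase for the mark made by trx-type enzymes. At 23546 bp trx was the longest of the 5, and the others measured 3252 to 10102 bp. The length of fs(1)h, 23629 bp, was close to that of trx, and fs(1)h, which encodes a bromodomain protein of the BET family, was not in the table.

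In the Brahma complex the gene in the table was osa (FBgn0261885). Osa marks the BAP form of the complex, and loss of the complex in type II lineages is known to let progenitors revert to neuroblasts. The genes that mark the alternative PBAP form, Bap170 and polybromo, were not in the table. Neither was the ATPase gene brm, nor were the shared subunit genes mor, Snr1, Bap55, Bap60 and Bap111. At 30533 bp osa was the longest gene of this complex, and brm followed at 12788 bp. The gene brm was longer than 4 of the 5 PRC1 genes in the table (ph-d, Su(z)2, Pc and ph-p).

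The other trithorax group and associated genes in the table were kis, skd, tna and corto. The gene kis (FBgn0266557) encodes Kismet, a chromodomain helicase of the CHD family that acts in transcription elongation. The gene skd (FBgn0003415) encodes a subunit of the Mediator kinase module. Its partner in that module, kto, was not in the table, and the kto gene is shorter, at 8331 against 34621 bp. A zinc finger protein related to SUMO ligases is encoded by tna (FBgn0026160), and corto (FBgn0010313) encodes a chromodomain protein that interacts with proteins of both groups. The partners skd and kto were thus split, whereas both genes of each PRC1 pair were in the table and both genes of the pairs esc with escl and pho with phol were not. Of protein-coding genes in the length deciles of esc, escl, pho and phol, 5.02%, 4.88%, 12.5% and 5.30% were in the table. Absence of both genes was therefore the likelier outcome for these pairs. For the PRC1 pairs the decile shares were 26.3% (Psc) and 12.5% (Su(z)2, ph-p and ph-d).

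Of 9 catalytic subunits, a grouping made after the entries were seen, 2 were in it, trx and kis. The others were E(z), Sce, calypso, ash1, Utx, lid and brm. The share of all protein-coding genes would give 0.698 genes of 9, and that of genes in the same length deciles 1.17, so the count was not below the background.

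Gene length went with being in the table, for the members as for all genes. Ordered into 10 equal strata (deciles) of length, protein-coding genes were in the table in 4.85% of cases in strata 1 to 8, in 12.5% in stratum 9 (6484 to 14719 bp) and in 26.3% in stratum 10. Of the 43 members, 24 fell in the 2 longest strata, and all 14 genes in the table were among these. In strata 1 to 8 there were 19 members, and 0 of these were in it. In stratum 9 there were 6 of 15 members in the table (40%), and in stratum 10 there were 8 of 9 (88.9%). The exception in the longest stratum was fs(1)h.

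**Figure D2:**
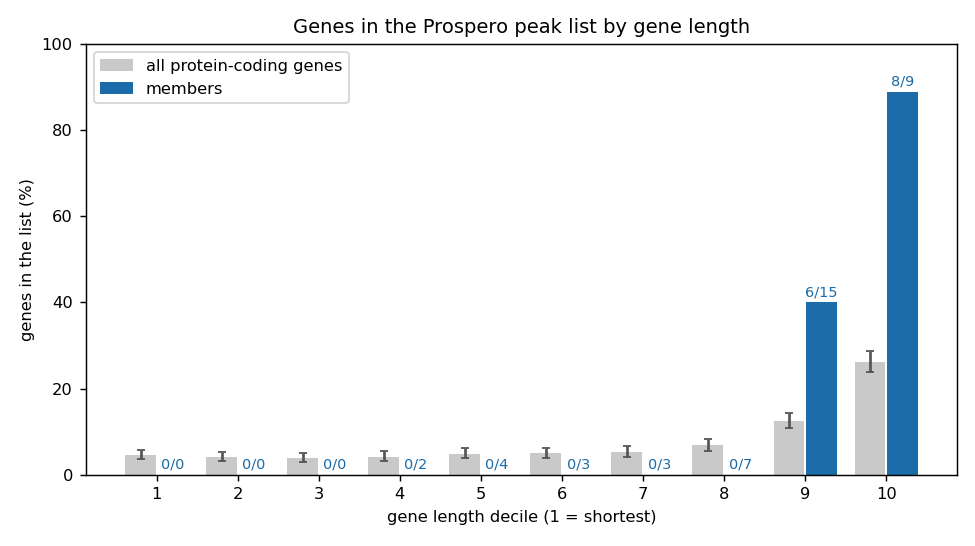
The x axis gives strata of gene length from 1 (shortest) to 10 (longest) and the y axis the percentage of genes in the authors' deposited table; grey bars are all protein-coding genes with exact 95% intervals, blue bars the members, with counts of members in the table over members in the stratum. Members stand above all genes in strata 9 and 10 (40% against 12.5%, and 88.9% against 26.3%), and none of the 19 shorter members is in the table.

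Weighted by the strata of the 43 members, the share of protein-coding genes in the table was 12.4%, or 5.31 genes of 43 where 14 were counted. For PRC1 the same figure was 0.875 genes of 7 where 5 were counted, for PRC2 it was 0.725 of 8 where 1 was counted, and for Brahma 0.782 of 9 where 1 was counted. The counts were also above this figure for the other trithorax group and associated genes (4 of 6 against 1.301) and the DNA-binding recruiters (2 of 3 against 0.456). For PRC2, Brahma, PhoRC (0 of 3 against 0.304), PR-DUB (0 of 2 against 0.176) and the trithorax and COMPASS genes (1 of 5 against 0.692) the counts were within 1 gene of it. In stratum 9 the lengths of members in and not in the table overlapped, from 7560 to 13121 bp for the 6 in it (ph-d, corto, Su(z)2, Pc, ph-p and Trl) and from 6487 to 12788 bp for the 9 not in it (Utx, Sfmbt, ash1, kto, Asx, pho, Jarid2, lid and brm). The number of RefSeq transcripts did not separate long members, with a median of 4 per gene both for the 14 in the table (range 1 to 15) and for the 10 not in it within strata 9 and 10 (range 1 to 9).

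**Figure D3:**
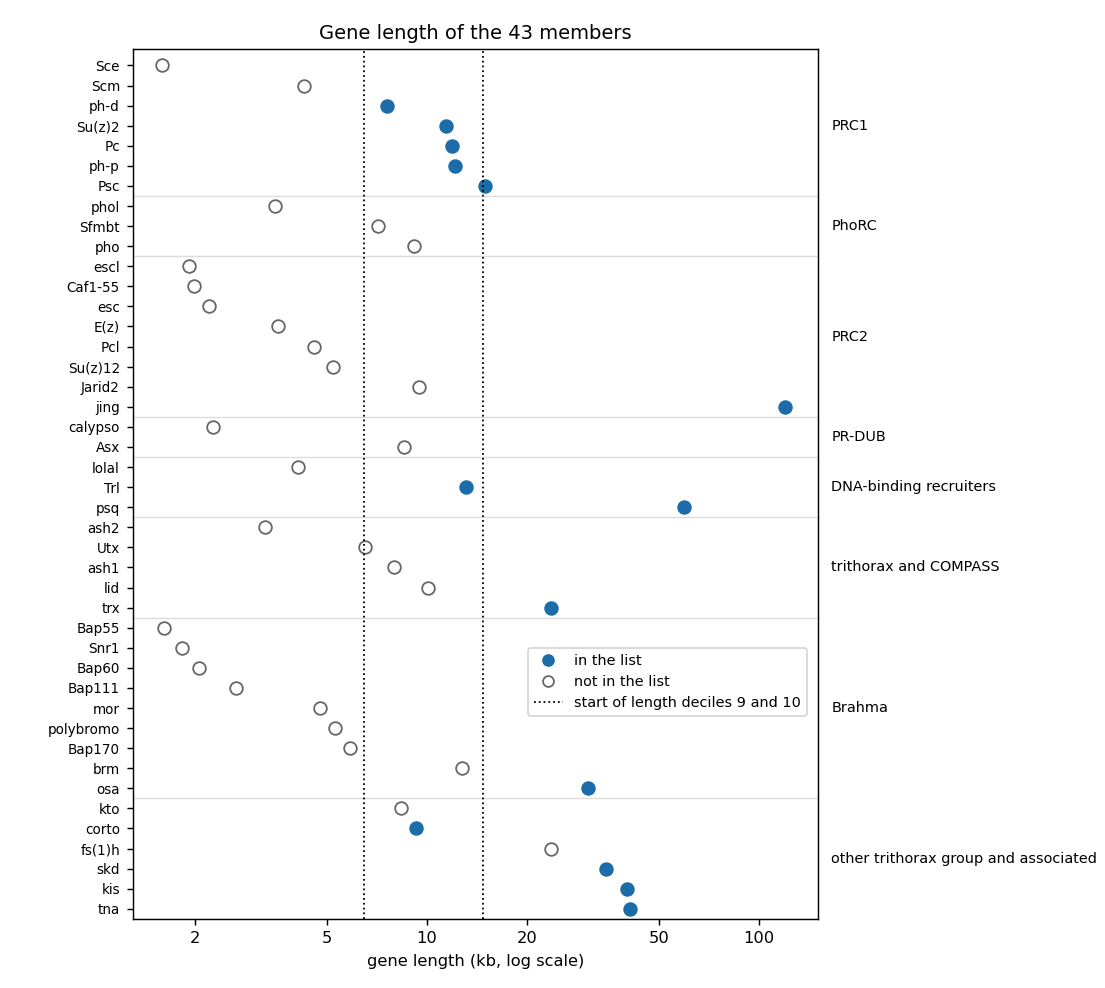
Each point is 1 of the 43 genes, placed by gene length in kb on a log axis and grouped by complex; filled points are in the authors' deposited table and open points are not, and dotted lines mark where the 9th and 10th length strata (deciles) begin; Nurf55 is plotted under its current symbol, the 2nd name under PRC2. No filled point lies left of the 9th stratum, and in that stratum filled and open points overlap in length.

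Neighbouring genes were looked at because 1 peak can be given to more than 1 gene. Of the 14 members in the table, 10 had a listed gene as the next protein-coding gene in gene order before or after them, and 0 of the 29 members not in the table did. Among all protein-coding genes the shares were 68.3% of the 1082 in the table and 8.96% of the 12864 not in it. In the 2 longest strata, where all 14 members in the table lie, 51.6% of the 541 genes in the table had such a neighbour, against 71.4% of the members. When genes wholly inside the span were passed over, the numbers were 9 of 14 members (64.3%) and 46.6% of the 541 genes. Within 10 kb, 8 of the 29 members not in the table had a listed gene (27.6%, against 21.8% of all protein-coding genes not in the table), so the 0 holds for the next gene and not for a wider window. These 8 were phol, Pcl, Jarid2, Asx, ash1, lid, Bap55 and Bap111.

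The members in the table without a listed gene as the next protein-coding gene were Su(z)2, trx, kis and skd. Of these, only Su(z)2 had no listed gene within 10 kb. Listed genes lie inside the spans of trx, kis and skd, and others within 10 kb are spen for kis and CG10581 and siz for skd. The gene corto had a listed gene on each side (plh and CG43131). Next to psq stood lola, another BTB gene with roles in axon growth and neuronal identity. The next genes of osa, tna and Trl in the table were Pxt, CG42831 and Tsen34. For Psc, psq, tna and corto, every listed gene next in order lay more than 10 kb from the member. For jing the listed gene next in order, CG15233, lies inside its span, as CG42507 lies inside that of Trl.

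**Figure D4:**
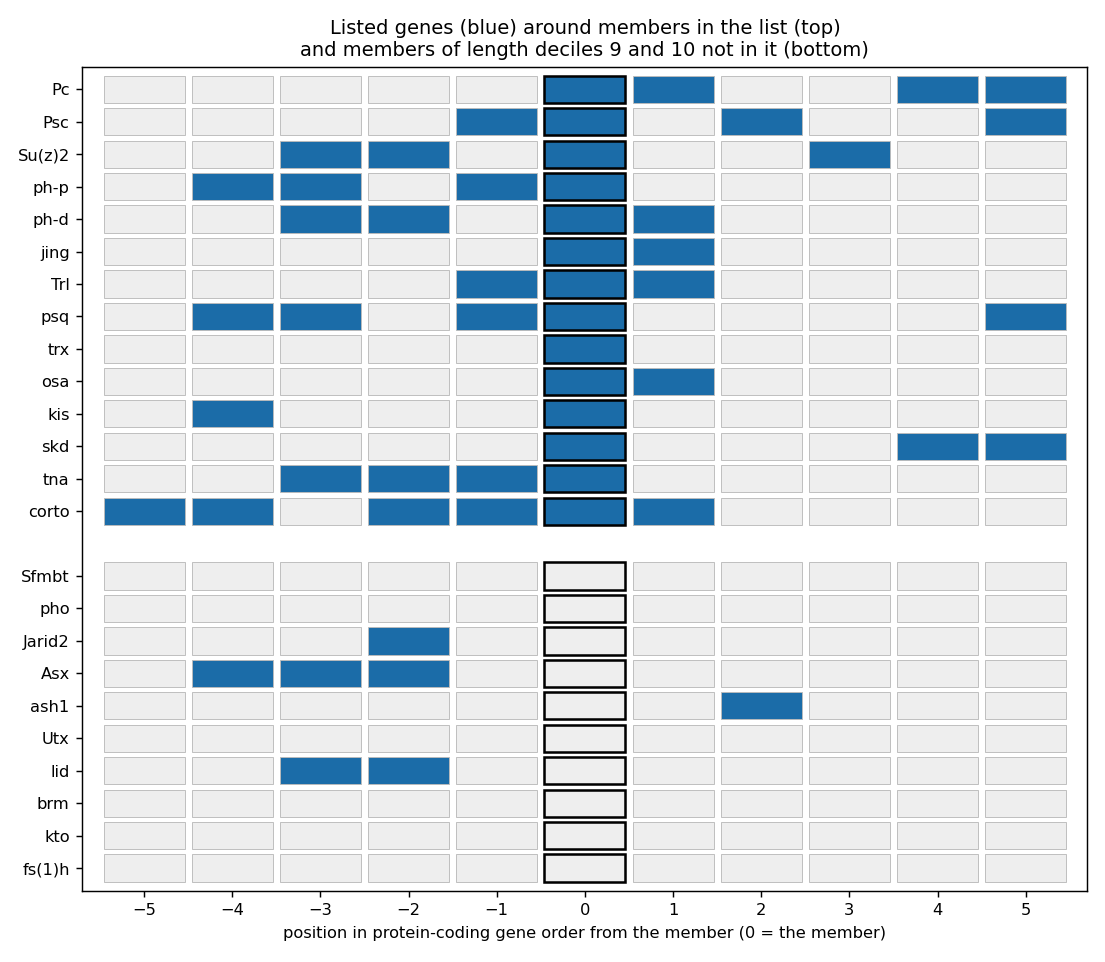
Each row is a member (outlined square, at 0) and the 5 protein-coding genes on either side in gene order; blue squares are genes in the authors' deposited table and grey squares are not. Genes inside a member's span take their place by start position. All but 4 of the 14 members in the table (upper rows) have a blue square next to them, and none of the 10 members of strata 9 and 10 that are not in the table (lower rows) has one.

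Inside the spans of these long genes lay further entries of the table. Of the 14 members in it, 7 (jing, Trl, trx, osa, kis, skd and tna) held at least 1 other listed gene wholly within their span, 11 such genes in all, of 18 annotated there. Of all protein-coding genes in the table, 15.6% (169 of 1082) held one, and 24.8% (134 of 541) of those in the 2 longest strata. Long non-coding RNA genes made 7 of the 11. The 3 within kis were lncRNA:CR44220, lncRNA:CR44221 and lncRNA:CR44222, while 4 other genes inside kis were not in the table. Inside jing, 3 of 4 genes were in it (lncRNA:CR43905, lncRNA:CR45127 and the protein-coding CG15233). The antisense RNA gene asRNA:CR46020 lay inside trx, lncRNA:CR46035 inside osa, lncRNA:CR45169 inside tna, the small RNA gene scaRNA:PsiU6-40 inside skd, and CG42507 inside Trl.

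No member outside the table held a listed gene. Only 2 of those 29 have annotated genes within their span, Sfmbt with 1 and brm with 4, and none of these 5 was in the table. The same held for nearly all protein-coding genes: 170 held a listed gene within their span, and 169 of the 170 were themselves in the table. Over all protein-coding genes in the table, 32.4% of the genes inside them were in it too, against 61.1% of those inside members in the table. Whether host and inner gene share a peak cannot be told from names.

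Other genes of the same pathways, from lists of 46 chromatin genes, had a lower share in the table than the members had. Of the 11 further subunits of the COMPASS complexes, 2 were in it, Hcf (FBgn0039904) and Ptip (FBgn0052133). Among 8 further Polycomb group genes the single entry was RYBP (FBgn0034763), which encodes a partner of variant PRC1 complexes. At 2626 bp it was shorter than every member in the table. Of 6 further recruiter genes, grh (FBgn0259211), which encodes the neuroblast temporal factor Grainyhead, and Adf1 (FBgn0284249) were in it. That share, 33.3%, was close to the 32.6% of the members. Of 4 further Brahma subunit genes, the actin gene Act5C (FBgn0000042) was in it. Genes of the same length strata would give 1.07 of the 11 COMPASS genes and 0.925 of the 8 Polycomb group genes. They would give 0.685 of the 6 recruiter genes and 0.509 of the 4 Brahma genes.

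None of the 10 genes for other chromatin remodellers, which include Iswi, Mi-2, Chd1, dom and Ino80, was in the table. The 7 genes of a mixed list labelled Mediator kinase and coactivators (CycC, Cdk8, nej, Set2, NSD, MRG15 and Rpd3) were not in it either. Not all of these 7 encode proteins of those kinds. Genes of the same length strata would give 1.3 of the 10 and 0.63 of the 7, so counts of 0 lay near the background. In all, 6 of 46 further chromatin genes were in the table (13.0%, exact 95% interval 4.94 to 26.3), where genes of their length strata gave 5.12. For the 43 members the corresponding numbers were 14 and 5.31. The intervals of the 2 shares overlap, and no test of the difference was made.

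**Figure D5:**
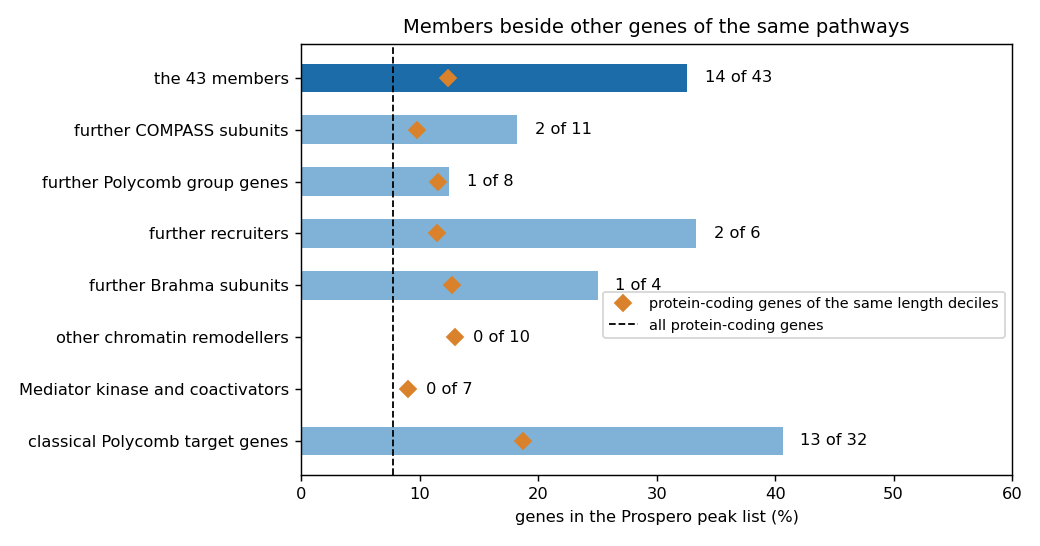
Bars show the percentage of genes in the authors' deposited table for the 43 members (dark) and for 7 lists of other genes of the same pathways (light), with counts beside them; diamonds show the percentage among all protein-coding genes of the same length strata and the dashed line that among all protein-coding genes. The members (14 of 43), the classical Polycomb target genes (13 of 32) and the further recruiters (2 of 6) stand well to the right of their diamonds. The further Brahma (1 of 4) and COMPASS (2 of 11) subunits also stand to the right. The further Polycomb group genes (1 of 8) stand close to theirs, and 2 lists have no gene in the table.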

How the data were processed

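Names were read from 1 table as deposited by the authors. Its columns (unit: other, as they hold text) are gene name, FlyBase identifier and symbol, per the file headers. It held 1584 entries, 1512 of genes and 72 of transcripts. Each fusion was profiled against Dam alone and averaged, per the labels. Aligner, peak caller, threshold, genome build and rule giving peaks to genes: not given in the sources used here. Depth is unknown.

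The 72 transcript entries were not matched, and 0 of them name a member. Gene entries were matched to a RefSeq gene table (Release 6 plus ISO1 MT) by symbol (1457), older symbol (49) or identifier (1), and 5 stayed unmatched. No coordinates of that assembly are printed. Newer symbols stand there for 2 members, calypso (caly) and lid (Kdm5), and the PRC2 subunit gene with the histone chaperone p55 is named here by its older symbol Nurf55. Gene length is the annotated span. The 43 members, their complexes and 78 other genes in 7 lists were chosen with earlier results of these data known. All members are named. Of the other lists every gene in the table is named. No set test was run. The length-stratum share was tested on simulated data. Promoter motif counts and protein comparisons that had been planned were not made, as no sequences were used here. Python 3.11.15, numpy 2.4.6, pandas 2.3.3, scipy 1.17.1 and matplotlib 3.10.9 were used.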

Additional observations from a re-analysis of the deposited data

How the results depend on the processing

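The table holds no replicate values, so no replicate could be left out and no paired analysis was possible because the table names genes and not samples. Of 42 alternative values, 39 stayed within the exact 95% interval of the value reported. This count is no measure of robustness, as 18 of the 42 were name-matching alternatives with identical values and the intervals of small groups are wide. Without the longest length stratum, the share of the remaining members in the table was 17.6%, outside the interval of the 32.6% reported. The alternative's construction removes 8 of the 14 genes in the table. The background falls too, as 26.3% of protein-coding genes in that stratum were in the table. Of the members left, 6 of 15 in stratum 9 and 0 of 19 in strata 1 to 8 were in it. Among all protein-coding genes of those strata the shares were 12.5% and 4.85%. The share of members ran from 30.3% (without arm 2R) to 35.1% (without arm 2L) over the 6 chromosome arms that carry members, and was 28.2% without jing, corto, lid and tna. The share of all protein-coding genes (7.76%) became 8.45% with all annotated genes and 9.54% with named genes only. Matching by older symbol or by the symbol column alone changed none of the 18 shares tried. With 50 length strata the share of genes of the members' length was 12.3% instead of 12.4%. The share of members in the table with a listed gene nearby was 78.6% within 10 kb instead of 71.4% for the next protein-coding gene. The 10 kb window also takes in RNA genes and genes inside the span, so it counts partly different members. On that measure the share was 76.2% for all protein-coding genes in the table and 63.6% for those in the 2 longest strata. For the next protein-coding gene outside the span the share of members was 64.3%, an alternative chosen after seeing the data. Exact names for the further chromatin genes, also chosen then, gave the same 13.0%.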

Other observations

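Genes known as classical targets of Polycomb silencing were in the authors' deposited table in 13 of 32 cases (40.6%, exact 95% interval 23.7 to 59.4), where protein-coding genes of the same length strata gave 5.996 genes. Among them were the Hox genes Ubx (FBgn0003944) and Antp (FBgn0260642), the retinal determination genes ey, toy, so and eya, and the T-box genes bi and H15. The homeobox genes ap, slou and oc, the zinc finger gene tsh and the pair-rule gene eve were also there. The eve gene measures 1477 bp and was the only one of the 13 outside the 2 longest strata. The neighbouring engrailed and invected genes, hh, wg, Dll, vg, abd-A, Abd-B and Scr were among the 19 not in the table. This list was drawn up with earlier results of these data known, which already showed several of these genes in the table.

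Members in the table lay on 5 of the 6 chromosome arms that carry any. Arm 2R had 4 of 10 (8.28% of all its protein-coding genes were in the table), arm 3L 4 of 11 (9.09%) and arm 3R 3 of 10 (7.59%). The X chromosome had 2 of 5 (7.46%) and arm 2L 1 of 6 (6.29%). The single member on chromosome 4, pho, was not in it, on a chromosome with 10% of its genes in the table.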
